A study of Mus musculus with 9 samples.

Results

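Cadherins and protocadherins other than E-cadherin were followed in cultured mouse lung cells with and without a retroviral MYC gene. A gene belonged to the group if its symbol began with Cdh and a digit or with Pcdh, Cdh1 (E-cadherin) being left out, and if a probe set of the array named that gene alone. This gave 55 genes with 100 probe sets, of 18193 genes on the array. Each gene was read from its brightest probe set, by the mean of the 9 arrays. Of the 55, 30 exceeded a threshold in 2 or more arrays, namely the 40th percentile of the array (5.28 to 5.34 on the log2 scale). Those 30 are described, among 12976 genes tested, and the other 25 are named at the end.

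RNA was measured on 9 Affymetrix expression arrays in 4 groups. The controls, 3 arrays, were preSC: neuroendocrine lung cells at a preneoplastic stage, from conditional Rb/p53/p130 mice of mixed C57BL/6 and 129/Sv background, whose lungs had received Adeno-Cre virus. The other groups, with 2 arrays each, were such cells carrying a retro-L-Myc, retro-C-Myc or retro-N-Myc virus, and the labels state that the L-Myc cells underwent transformation. Every group therefore shared the Rb/p53/p130 genotype, the lung origin and culture in RPMI1640 with bovine growth serum, and was labelled as free of stroma. The labels name no empty virus in preSC and no vector promoter, and they do not say how many mice, clones or infections stand behind an array. They give polyA RNA for preSC and L-Myc samples and total RNA for C-Myc and N-Myc samples. The design text calls the replicates biological.

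Cadherins are calcium-dependent adhesion proteins of the cell surface. Classical cadherins of types I and II bind the same or a related cadherin on the neighbouring cell and reach the actin cytoskeleton through catenins. Protocadherins lack the catenin-binding tail, sort and recognise cells mainly in the nervous system, and fall into a clustered family, in which each neuron uses few genes, and a non-clustered family of delta-1 and delta-2 genes.

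Values are deposited log2 intensities, and "differed by" or "change" means a difference of group means on that scale, with the standard error (SE) of a limma fit to all 9 arrays. A gene is said to have risen or fallen only where limma's p, adjusted by Benjamini-Hochberg over the 12976 genes, was below 0.05. The 3 comparisons with preSC share the same preSC arrays, and where 3 values against preSC are listed, they follow the order L-Myc, C-Myc, N-Myc. Values of different genes come from different probes and were not ranked against each other.

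The arrays of a group were not equally close. Over 12946 tested genes that are no members, preSC 1 and 2 correlated at 0.995 and N-Myc 1 and 2 at 0.993, but C-Myc 1 and 2 at 0.935. C-Myc 2 was closer to L-Myc 2 (0.995), and C-Myc 1 to N-Myc 1 (0.989) and N-Myc 2 (0.990), than the C-Myc arrays were to each other. The deviation of preSC 3 from its group mean correlated with those of L-Myc 2 (0.75) and C-Myc 2 (0.43). Results are therefore also given without these 3 arrays, a choice made after seeing the data. The preSC arrays further differed from every transduced array in the 18S ribosomal RNA control (12.88 to 13.91 against 8.22 to 9.35) and in the 5' minus 3' difference of the spiked-in Dap transcript (-3.66 to -3.40 against -1.68 to -1.51). These controls moved with each comparison with preSC, and their part in the changes below was not tested.

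The cells carried the markers of their label. All 11 neuroendocrine genes of the marker list that the array measured, among them Chga, Syp and Insm1, lay above the threshold in 2 or more arrays, and the mean of the list ran from 10.37 to 11.01 over the 9 arrays. The list itself moved with the comparisons: 3 of its 11 genes rose in each transduced group (Syp, Uchl1 and Nkx2-1), and 2, 6 and 6 fell (Chga and Scg2 in all), with medians of -0.58, -0.87 and -1.09 beside -0.04, -0.05 and -0.03 over all genes tested. The part of this shift in the cadherin changes was not tested. Of 11 fibroblast genes, 6 were below the threshold on every array, including Col1a1, Col1a2, Col3a1, Lum and Vim. Of 12 endothelial genes, 6 were below it on every array, including Pecam1, Tek, Tie1 and Emcn, but Vwf read 10.57 to 10.66 in preSC and 6.95 to 8.63 in transduced arrays and fell in all 3 groups (changes of -3.06, -2.77 and -2.04, adjusted p = 0.00473, 0.00348 and 0.00711 by limma). Of 11 leukocyte genes, 5 were below it on every array, including Ptprc and Itgam, as were 5 of 11 genes of club, alveolar and ciliated epithelium and 4 of 6 of mesothelium and glia. Other genes of these lists were well above it: Lyz2 reached 12.31 and Sftpc 11.10, and Abca3 read 9.51 to 9.97 in preSC and 7.54 to 8.39 in transduced arrays. Array means of these 5 lists ran from 4.89 to 5.31, 5.36 to 5.78, 5.04 to 5.74, 5.37 to 5.92 and 4.93 to 5.13.

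Among the 30 genes, Pcdh8 fell in all 3 transduced groups and Pcdh10 in N-Myc arrays. Cdh13 (T-cadherin) also fell in all 3 groups, Cdh4 (R-cadherin) in C-Myc and N-Myc arrays and Cdh8 in N-Myc arrays. Cdh11 rose in C-Myc and N-Myc arrays. Cdh2 (N-cadherin) stayed between 11.21 and 11.55 on all 9 arrays and passed in no comparison. Against preSC, 2 of 30 genes (6.67%) passed in L-Myc arrays, both lower, where 13.5% of all genes tested passed, 5.44% higher and 8.03% lower. In C-Myc arrays 9 (30%) passed, 2 higher and 7 lower, where 23.5% of all genes passed, 9.91% higher and 13.6% lower. In N-Myc arrays 10 (33.3%) passed, 2 higher and 8 lower, where 28.8% of all genes passed, 12.5% higher and 16.4% lower.

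Beside these shares of all genes, the counts are no result about the family. Median changes of the 30 genes were -0.31, -0.33 and -0.24, beside -0.04, -0.05 and -0.03 over all genes tested. Cdh11 and Pcdh18 entered the test through transduced arrays alone, since no preSC array lay above the threshold for either, so each had to differ from preSC to be tested at all. They are the 2 genes counted as higher in C-Myc and in N-Myc arrays. Cdh23 entered through C-Myc 2 and N-Myc 2. Without preSC 3, L-Myc 2 and C-Myc 2, the counts were 15, 19 and 19, while 32.8%, 50.8% and 55.9% of all genes passed.

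**Figure D1:**
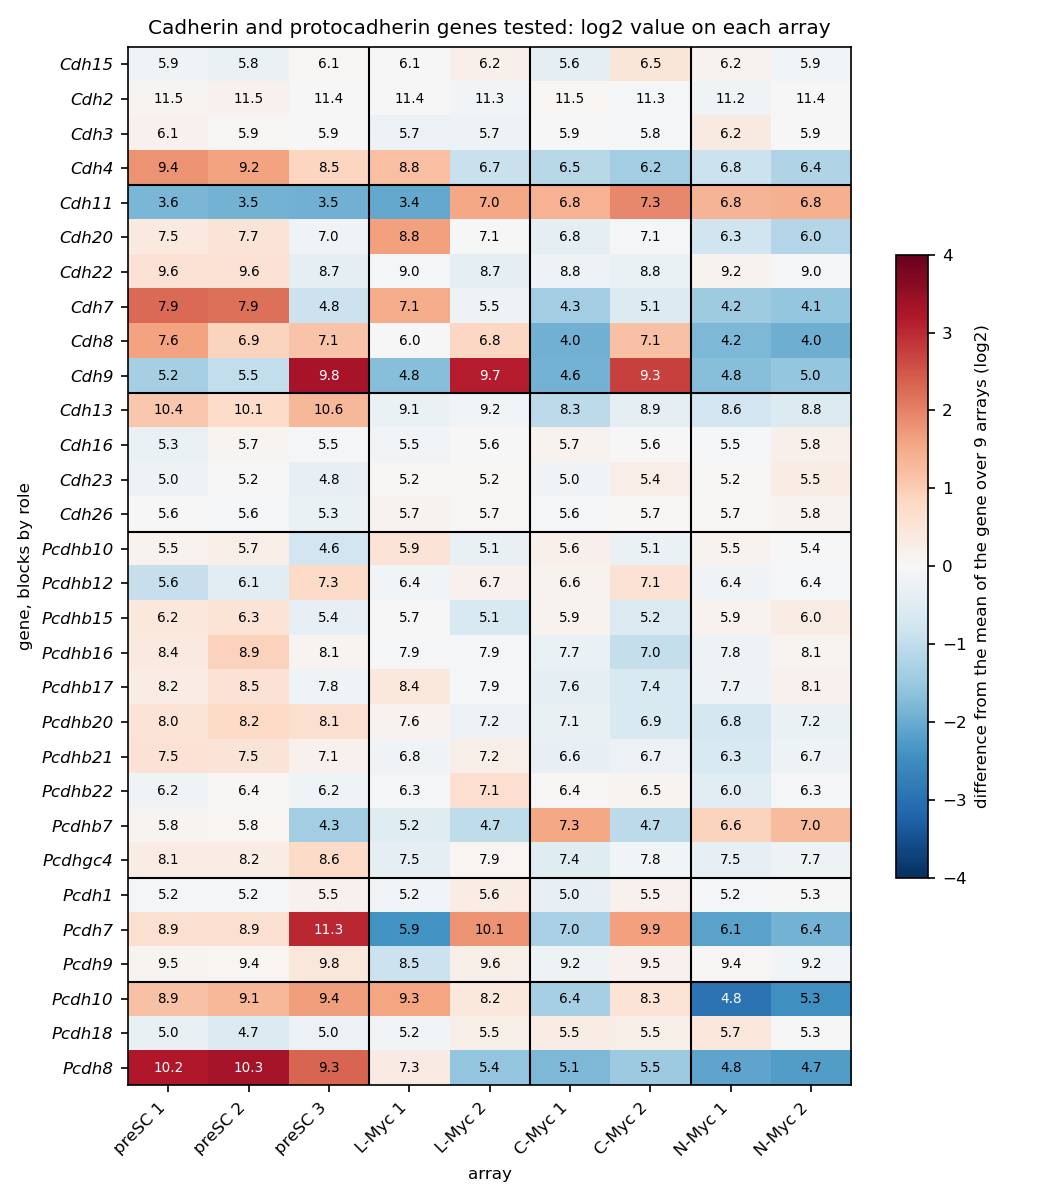
Log2 value of the 30 tested genes on each of the 9 arrays (numbers), with colour for the difference from the gene's own mean over the 9 arrays and lines between groups and between roles. Pcdh8 is high only in the 3 preSC arrays, while Cdh9 and Pcdh7 are highest in preSC 3, L-Myc 2 and C-Myc 2.

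Promoter sequence is shown for Pcdh8 and Pcdh10, which passed under every alternative in 3 and 1 comparisons with preSC, and for Cdh8, Cdh9 and Pcdh7, whose values split between arrays of 1 group. Members on the chromosome that carries the Pcdhb cluster were left out of this search. Of the 55 genes, the RefSeq table of promoters (GRCm38.p6) then matched 20, 13 of them tested. Each window is the 250 bases before the annotated start, read 5' to 3' on the strand of the gene. Capitals mark CCAAT on either strand (the letters of the CCAAT box) and TATAAA (those of the TATA box), both chosen after the sequences were read. The windows lie at chr14:79771313-79771562 (minus strand), chr3:45378148-45378397 (plus), chr8:99416472-99416721 (minus), chr15:16728665-16728914 (plus) and chr5:57717831-57718080 (plus).
Pcdh8: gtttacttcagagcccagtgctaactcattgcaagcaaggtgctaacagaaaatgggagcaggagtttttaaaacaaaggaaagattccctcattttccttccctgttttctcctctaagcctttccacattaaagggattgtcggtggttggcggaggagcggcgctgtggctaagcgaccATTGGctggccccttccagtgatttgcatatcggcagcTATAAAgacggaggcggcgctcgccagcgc
Pcdh10: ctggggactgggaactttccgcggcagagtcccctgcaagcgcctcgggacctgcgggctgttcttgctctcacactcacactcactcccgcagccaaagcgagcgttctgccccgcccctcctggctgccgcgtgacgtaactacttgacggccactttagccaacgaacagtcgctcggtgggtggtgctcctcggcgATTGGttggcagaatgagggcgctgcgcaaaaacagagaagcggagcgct
Cdh8: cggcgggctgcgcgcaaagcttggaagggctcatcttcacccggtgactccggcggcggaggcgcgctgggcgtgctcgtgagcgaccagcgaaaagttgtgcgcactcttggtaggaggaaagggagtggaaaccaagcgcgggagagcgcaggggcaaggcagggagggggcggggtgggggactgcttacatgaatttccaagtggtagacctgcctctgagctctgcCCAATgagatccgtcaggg
Cdh9: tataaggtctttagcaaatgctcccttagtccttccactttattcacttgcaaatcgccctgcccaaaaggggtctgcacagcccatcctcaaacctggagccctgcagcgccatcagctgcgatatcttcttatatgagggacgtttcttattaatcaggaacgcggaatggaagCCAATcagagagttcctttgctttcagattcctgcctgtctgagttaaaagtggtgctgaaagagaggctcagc
Pcdh7: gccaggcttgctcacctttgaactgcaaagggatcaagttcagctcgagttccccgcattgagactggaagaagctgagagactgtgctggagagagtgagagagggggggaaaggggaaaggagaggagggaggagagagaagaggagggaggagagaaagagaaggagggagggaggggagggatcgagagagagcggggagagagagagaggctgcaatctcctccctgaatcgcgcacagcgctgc

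The Pcdh8 window held the CCAAT motif on the reverse strand, beginning 68 bases before the start, and the TATA motif 30 bases before it. The CCAAT motif began 50 bases before the start of Pcdh10 (reverse strand), 19 bases before that of Cdh8 and 74 bases before that of Cdh9. The Pcdh7 window held neither. Over all 32851 windows of the table, with no chromosome left out, 33.9% held the former and 12.4% the latter, each on either strand. Of 23 windows of the members, 15 (65.2%) held the former and 2 the latter. The 23 windows belong to 20 genes, and overlapping windows of Pcdh9 hold the same CCAAT motif, counted for each. The 65.2% is thus a share of the windows searched, not of the family.

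CACGTG, the E-box that MYC and MAX bind, was in none of the 5 windows shown, in 1 of 23 member windows (that of Cdh15) and in 6.02% of all windows. The E-box of SNAI and ZEB repressors (CACCTG, either strand) was in 3 of 23 member windows and in 17.2% of all. A match in these letters is not a measured binding site.

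Of the 4 type I classical cadherins, all tested, Cdh4 fell in C-Myc and N-Myc arrays and the other 3 passed in no comparison. Cdh4 encodes R-cadherin, which is found in the developing retina and brain. Its values were 9.40, 9.22 and 8.48 in preSC 1 to 3, 8.81 and 6.71 in L-Myc 1 and 2, 6.51 and 6.22 in C-Myc arrays, and 6.77 and 6.40 in N-Myc. Every C-Myc and N-Myc array lay below every preSC array, whereas L-Myc 1 lay within the preSC range and L-Myc 2 among the other transduced arrays. Cdh4 fell, with a change of -2.67 in C-Myc arrays (SE 0.57, adjusted p = 0.0168 by limma) and of -2.45 in N-Myc arrays (SE 0.57, adjusted p = 0.0195 by limma). In L-Myc arrays it differed by -1.28 (SE 0.57, adjusted p = 0.18 by limma). Its other probe set past the filter differed by -2.31 and -2.18 in these groups. The call held without preSC 3. Without preSC 1, preSC 2 or either transduced array the adjusted p was 0.0537 to 0.0615 for C-Myc and 0.0606 to 0.123 for N-Myc, with limma.

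Cdh2, the N-cadherin of neurons and mesenchymal cells, was the steadiest of this type. It read 11.50, 11.55 and 11.36 in preSC, 11.38 and 11.26 in L-Myc, 11.47 and 11.34 in C-Myc arrays, and 11.21 and 11.36 in N-Myc arrays. The groups overlapped, and the intervals of the differences from preSC bound them between -0.48 and 0.24. Cdh3, which encodes the placental P-cadherin and neighbours Cdh1, ran from 5.65 to 6.23 over the 9 arrays and differed by -0.28, -0.11 and 0.10. Cdh15, the M-cadherin of muscle, ran from 5.64 to 6.54 and differed by 0.15 to 0.24. For comparison, Cdh1 itself read 12.62 to 13.12 in preSC and 9.38 to 11.39 in transduced arrays. It fell in every transduced group, with changes of -2.47, -1.84 and -1.60 (SE 0.50, adjusted p = 0.0215, 0.0369 and 0.0495 by limma). Cdh1 did not pass in C-Myc or N-Myc arrays when any 1 array of the comparison was left out (limma adjusted p from 0.0664 to 0.227), nor in L-Myc arrays without any 1 preSC array (0.0544 to 0.0662).

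Of 11 type II cadherins, 6 were tested. Cdh11 rose in C-Myc and N-Myc arrays, Cdh8 fell in N-Myc arrays, and Cdh7, Cdh9, Cdh20 and Cdh22 passed in no comparison. Cdh11, osteoblast cadherin, is typical of mesenchymal cells. Its values were 3.59, 3.54 and 3.52 in preSC, 3.39 and 6.98 in L-Myc 1 and 2, 6.83 and 7.34 in C-Myc arrays, and 6.80 and 6.84 in N-Myc arrays. Thus 5 of 6 transduced arrays lay above the threshold, and L-Myc 1 lay below every preSC array. Cdh11 rose by 3.53 (SE 0.87, adjusted p = 0.0261) in C-Myc and by 3.27 (SE 0.87, adjusted p = 0.0289) in N-Myc arrays by limma. These sizes rest on preSC values below the threshold. Cdh11 was tested only because transduced arrays exceeded the threshold, so the p-values are not independent of that selection. In L-Myc arrays it differed by 1.64 (SE 0.87, adjusted p = 0.25 by limma). The difference was 3.43 without L-Myc 1. It was -0.17 without preSC 3, L-Myc 2 and C-Myc 2. Each of these fits had 1 L-Myc array left.

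L-Myc 2 lay 3.59 above L-Myc 1 for Cdh11, and the fit pools that spread over the groups. Without any 1 array of the comparison, limma's adjusted p was 0.0550 to 0.0843 in C-Myc and 0.0609 to 0.139 in N-Myc arrays, with changes of 3.25 to 3.79. The other Cdh11 probe set did not pass the filter on low values, so the rise rests on 1 probe set. Of 11 fibroblast markers, 6 were below the threshold on every array, Col1a1, Col1a2 and Col3a1 among them. Dcn was high in preSC 3 (9.32), L-Myc 2 (10.32) and C-Myc 2 (9.69) and at 5.29 to 6.86 on the other arrays, so it was higher with Cdh11 in L-Myc 2 than in L-Myc 1, and low in both N-Myc arrays, where Cdh11 was high. Pdgfra ran from 5.46 to 6.41, Pdgfrb from 5.28 to 5.50, Acta2 from 5.06 to 5.80 and Thy1 from 3.97 to 6.49. None of the 5 fibroblast markers tested passed against preSC, and their part in the Cdh11 values was not tested.

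Cdh8 lies beside Cdh11 in the RefSeq gene order, with Cdh5 on the other side of Cdh11, and its product is a neural cadherin of synaptic circuits. It read 7.58, 6.85 and 7.09 in preSC, 5.98 and 6.78 in L-Myc, 4.03 and 7.11 in C-Myc 1 and 2, and 4.17 and 3.99 in N-Myc arrays. C-Myc 1 and both N-Myc arrays were below the threshold, so the size of the N-Myc change rests on values under it, while C-Myc 2 lay inside the preSC range. Cdh8 fell by 3.09 (SE 0.78, adjusted p = 0.0253 by limma) in N-Myc arrays, and its other 2 probe sets past the filter differed by -2.30 and -2.76. It differed by -0.79 in L-Myc and by -1.60 in C-Myc arrays (SE 0.78, adjusted p = 0.54 and 0.18 by limma). The N-Myc call did not hold without any 1 of its 5 arrays (limma adjusted p from 0.0520 to 0.135). Cdh11 and Cdh8 thus took opposite directions in N-Myc arrays.

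Cdh9, also of type II, showed the largest split within groups. It read 5.18, 5.55 and 9.81 in preSC 1 to 3, 4.81 and 9.65 in L-Myc 1 and 2, 4.61 and 9.26 in C-Myc 1 and 2, and 4.80 and 4.99 in N-Myc arrays. Exactly 1 array of preSC, L-Myc and C-Myc was high, and neither N-Myc array was. Group means hid this: Cdh9 differed from preSC by 0.38, 0.09 and -1.95 (SE 2.00), with limma adjusted p from 0.49 to 0.98. Cdh7 split the other way in 2 groups. It read 7.93, 7.89 and 4.82 in preSC, 7.14 and 5.46 in L-Myc, 4.28 and 5.14 in C-Myc arrays, and 4.24 and 4.13 in N-Myc arrays. Both N-Myc arrays lay below all other arrays, preSC included, and the N-Myc change of -2.70 (SE 0.96) missed the threshold (adjusted p = 0.073 by limma).

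Cdh20 read 7.53, 7.66 and 7.02 in preSC, 8.79 and 7.14 in L-Myc, 6.76 and 7.08 in C-Myc arrays, and 6.34 and 5.98 in N-Myc arrays. L-Myc 1 was above and both N-Myc arrays below every preSC array. Its differences from preSC were 0.56, -0.48 and -1.24 (SE 0.45), with adjusted p = 0.076 by limma in N-Myc arrays. Cdh22, a cadherin of brain and pituitary, ran from 8.67 to 9.63 and differed by -0.46, -0.50 and -0.23 (SE 0.30). It passed against preSC in L-Myc and C-Myc arrays in 3 of 15 other settings each, and in none of the 15 did its direction change.

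**Figure D2:**
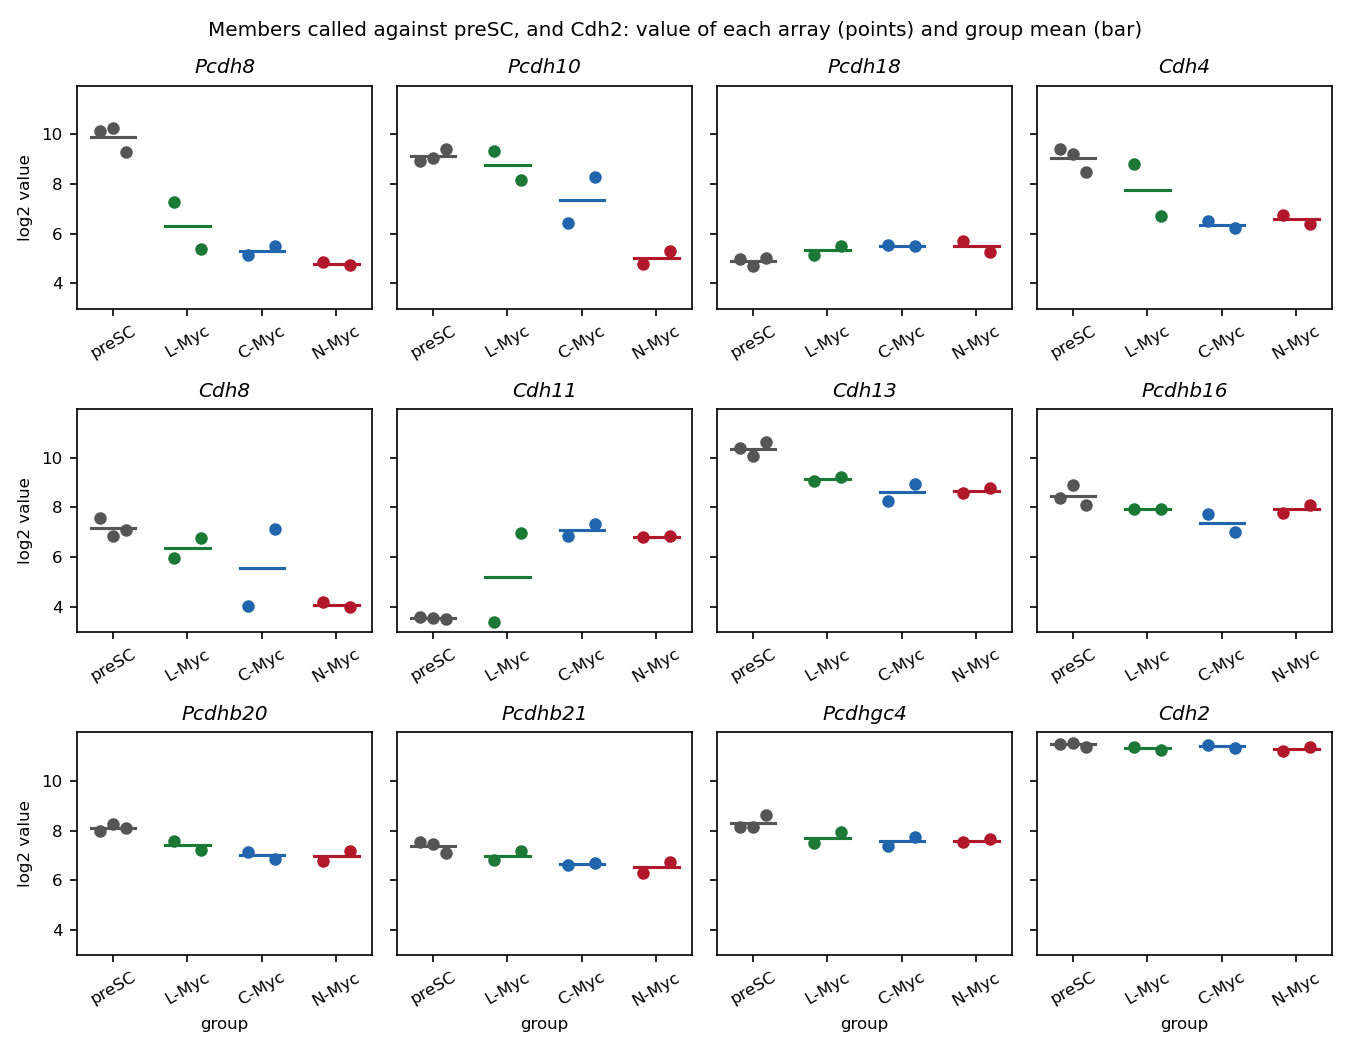
Log2 value of each array (points) and group mean (bar) for the 11 genes that passed against preSC in at least 1 comparison, and for Cdh2. In Cdh11 and Cdh4 the L-Myc arrays split, in Cdh8 and Pcdh10 the C-Myc arrays split, and Cdh2 stays between 11.21 and 11.55.

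Of the 5 atypical cadherins, 4 were tested and Cdh13 passed. Cdh13 encodes T-cadherin, which is held in the membrane by a lipid anchor and lacks a cytoplasmic tail. It read 10.41, 10.06 and 10.64 in preSC, 9.07 and 9.21 in L-Myc, 8.27 and 8.94 in C-Myc arrays, and 8.57 and 8.77 in N-Myc arrays. All 6 transduced arrays lay below all 3 preSC arrays. Cdh13 fell in all 3 groups, with changes of -1.23, -1.76 and -1.70 (SE 0.24) and adjusted p = 0.0196, 0.00482 and 0.00489 by limma. The C-Myc call held without any 1 array. It was lost without N-Myc 1 (limma adjusted p = 0.0528) in N-Myc arrays and without preSC 1, L-Myc 1 or L-Myc 2 (0.0635 to 0.0815) in L-Myc arrays.

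The probe sets of Cdh13 did not move alike. The second-brightest differed by -2.38, -2.72 and -2.73, further than the brightest. A dimmer one past the filter differed by 0.46, -0.03 and -0.03. The remaining atypical genes differed little between groups, at values close to the threshold. Cdh16, the kidney Ksp-cadherin, ran from 5.32 to 5.78, Cdh26 from 5.35 to 5.76 and Cdh23, a cadherin of the tip links of hair cells, from 4.83 to 5.46. Their differences from preSC lay between 0.03 and 0.35, and none passed.

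Of 23 clustered protocadherin genes on single-gene probe sets, 22 were the whole Pcdhb cluster as RefSeq lists it and 1 was Pcdhgc4. Of the Pcdhb genes, 9 were tested: Pcdhb7, Pcdhb10, Pcdhb12, Pcdhb15, Pcdhb16, Pcdhb17, Pcdhb20, Pcdhb21 and Pcdhb22. None of the first 6 genes of the cluster reached the threshold in 2 arrays, and all of its last 3 did. The Pcdhb genes are closely similar copies, so probes can share signal between them and each value is uncertain as to its gene. Against preSC, none of the 10 clustered genes tested passed in L-Myc arrays, 4 fell in C-Myc and 3 fell in N-Myc arrays, and none rose, where 8.03%, 13.6% and 16.4% of all genes tested fell and 5.44%, 9.91% and 12.5% rose. Their median changes were -0.36, -0.57 and -0.21.

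Pcdhb20 was the clearest of them. It read 8.0, 8.25 and 8.10 in preSC, 7.58 and 7.21 in L-Myc, 7.14 and 6.85 in C-Myc arrays, and 6.76 and 7.19 in N-Myc arrays. All 6 transduced arrays lay below preSC. It fell, with a change of -1.12 in C-Myc arrays (SE 0.19, adjusted p = 0.00933 by limma) and of -1.14 in N-Myc arrays (SE 0.19, adjusted p = 0.00814 by limma). In L-Myc arrays it differed by -0.72 and did not pass (adjusted p = 0.0511 by limma). The C-Myc call held without any 1 array, and the N-Myc call was lost without N-Myc 1 (limma adjusted p = 0.0725).

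The next gene of the cluster, Pcdhb21, read 7.52, 7.46 and 7.11 in preSC, 6.81 and 7.16 in L-Myc, 6.61 and 6.68 in C-Myc arrays, and 6.31 and 6.74 in N-Myc arrays. Only the C-Myc and N-Myc arrays were all below preSC. It fell, with changes of -0.72 in C-Myc and -0.84 in N-Myc arrays (SE 0.20, adjusted p = 0.0395 and 0.0208 by limma), but its other probe set differed by -0.00 and -0.26. Pcdhb16 read 8.37, 8.89 and 8.08 in preSC, 7.93 and 7.92 in L-Myc, 7.72 and 7.01 in C-Myc arrays, and 7.77 and 8.09 in N-Myc arrays. N-Myc 2 overlapped preSC and the C-Myc arrays did not. Pcdhb16 fell by 1.08 (SE 0.29, adjusted p = 0.0342 by limma) in C-Myc arrays and differed by -0.52 in the other groups. Its second probe set past the filter differed by -0.67 in C-Myc arrays (adjusted p = 0.0974 by limma).

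Pcdhgc4, of the Pcdhg cluster, read 8.15, 8.15 and 8.63 in preSC, 7.50 and 7.93 in L-Myc, 7.38 and 7.76 in C-Myc arrays, and 7.54 and 7.65 in N-Myc arrays. Every transduced array was below every preSC array. It fell, with changes of -0.74 in C-Myc and -0.72 in N-Myc arrays (SE 0.22, adjusted p = 0.0473 and 0.0469 by limma) and differed by -0.60 in L-Myc arrays. These calls were near the threshold. With 1 array left out, Pcdhb21 passed only without preSC 3 in both groups, Pcdhb16 only without preSC 3 or C-Myc 1, and Pcdhgc4 only without C-Myc 2 in C-Myc and never in N-Myc arrays. With any other array of the comparison left out, limma's adjusted p was 0.0796 to 0.136 for Pcdhb21, 0.0780 to 0.208 for Pcdhgc4 and 0.0784 to 0.133 for Pcdhb16 in C-Myc arrays. In N-Myc arrays it was 0.0593 to 0.151 for Pcdhb21 and 0.0730 to 0.212 for Pcdhgc4.

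The other 6 clustered genes passed in no comparison. Pcdhb7 differed most between arrays, with 5.82, 5.79 and 4.32 in preSC, 5.23 and 4.71 in L-Myc, 7.27 and 4.65 in C-Myc arrays, and 6.60 and 6.99 in N-Myc arrays. C-Myc 1 and both N-Myc arrays were above every preSC array, and preSC 3, L-Myc 2 and C-Myc 2 were the lowest. Pcdhb12 was lowest in preSC 1 (5.58) and highest in preSC 3 (7.26), Pcdhb10 ran from 4.62 to 5.93, Pcdhb15 from 5.13 to 6.29, Pcdhb17 from 7.36 to 8.54 and Pcdhb22 from 5.97 to 7.05. Pcdhb17 differed by -0.73 in C-Myc arrays (SE 0.26, adjusted p = 0.0814 by limma), and its groups did not overlap.

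Of the 4 delta-1 protocadherins, 3 were tested and none passed. Pcdh7, a gene first studied in brain and heart, read 8.95, 8.92 and 11.31 in preSC 1 to 3, 5.90 and 10.09 in L-Myc 1 and 2, 6.99 and 9.92 in C-Myc 1 and 2, and 6.14 and 6.39 in N-Myc arrays. The same 3 arrays were high as for Cdh9, and every other transduced array lay below preSC. The differences of -1.73, -1.27 and -3.46 (SE 1.38) did not pass (limma adjusted p = 0.45, 0.54 and 0.099). Its 2 dimmer probe sets differed in the other direction in L-Myc and C-Myc arrays, by 0.31 to 1.14, and by 0.02 and -1.09 in N-Myc arrays. Without preSC 3, L-Myc 2 and C-Myc 2, where only preSC 1 and 2 and the N-Myc arrays gave the spread, Pcdh7 passed as lower in N-Myc arrays. The L-Myc and C-Myc groups then had 1 array each.

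Pcdh9 ran from 8.48 in L-Myc 1 to 9.82 in preSC 3 and differed by -0.54, -0.23 and -0.26 (SE 0.32). Of its 3 probe sets past the filter, the dimmest differed by 0.82, 1.42 and 1.26 and another by -0.71, -0.91 and -1.20, so Pcdh9 is given no direction. Pcdh1, an epithelial protocadherin of the airway, ran from 4.96 to 5.59, close to the threshold, and differed by -0.10 to 0.06.

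**Figure D3:**
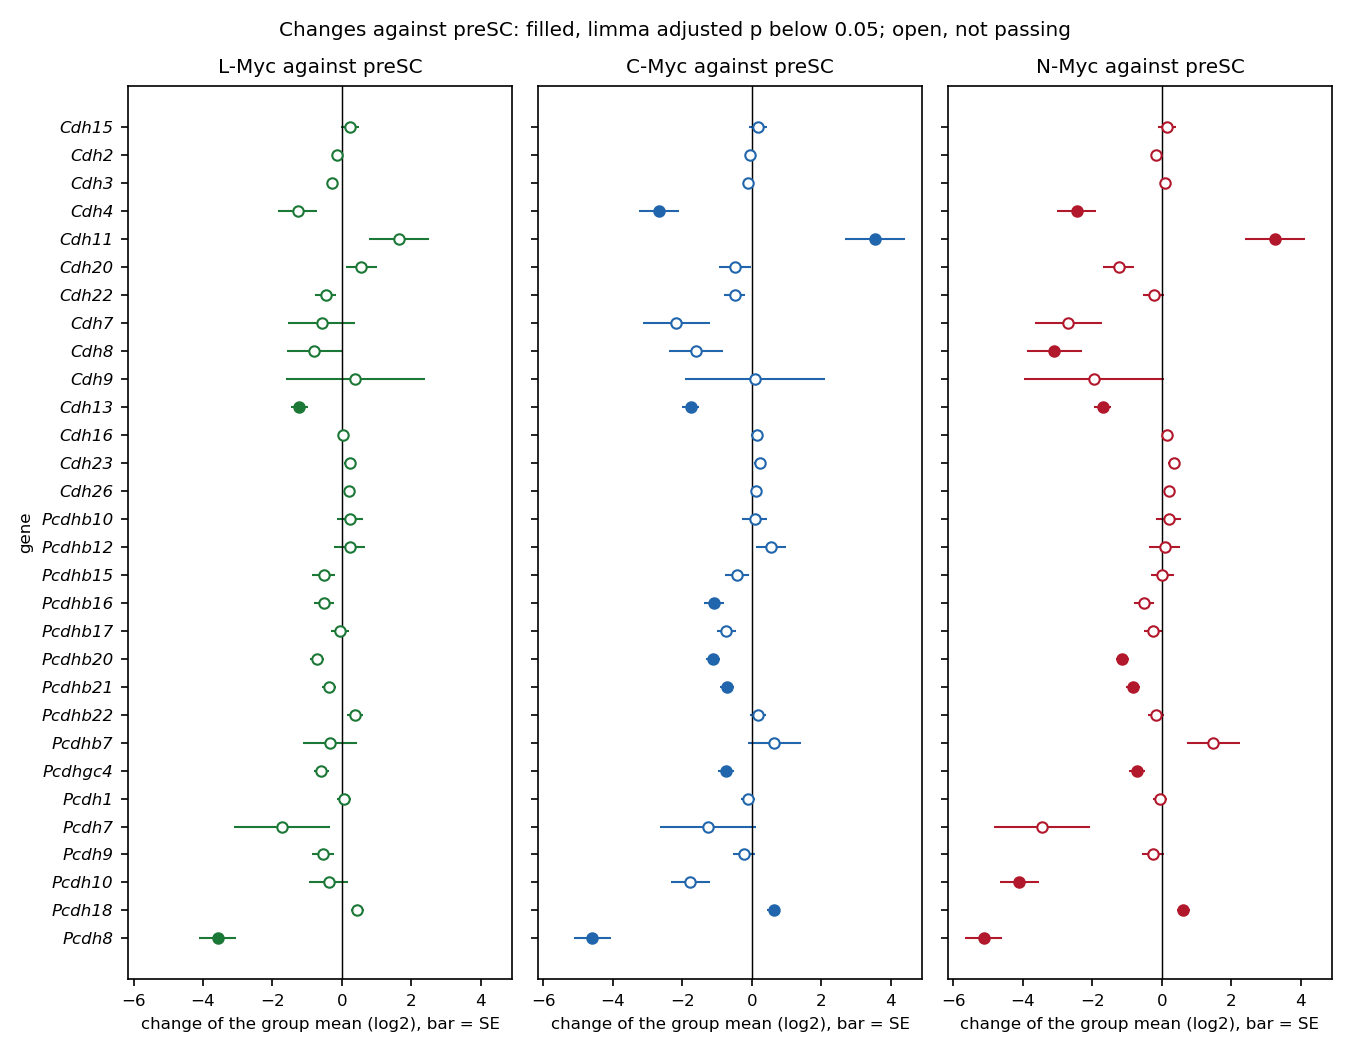
Change of the group mean against preSC (log2, bars are the limma SE) for the 30 genes, with a panel for each transduced group. Filled points passed at an adjusted p below 0.05, which are 2, 9 and 10 genes, and the widest bars are those of Cdh9 and Pcdh7.

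Of the 5 delta-2 protocadherins, 3 were tested, namely Pcdh8, Pcdh10 and Pcdh18. Pcdh8, also named arcadlin and paraxial protocadherin, takes part in sorting of early mesoderm and in cadherin turnover at synapses. It read 10.16, 10.28 and 9.29 in preSC 1 to 3, 7.27 and 5.39 in L-Myc, 5.14 and 5.49 in C-Myc arrays, and 4.84 and 4.73 in N-Myc arrays. All 6 transduced arrays lay below preSC by more than the spread within any group, and C-Myc 1 and the N-Myc arrays were below the threshold. Pcdh8 fell in all 3 groups, with changes of -3.58, -4.59 and -5.12 (SE 0.53) and adjusted p = 0.00890, 0.00338 and 0.00247 by limma. The C-Myc size rests in part, and the N-Myc size wholly, on transduced values below the threshold. Its other probe set differed by -3.01, -4.35 and -4.83. The call held in all 16 other settings of each comparison, with limma adjusted p up to 0.0399, 0.0193 and 0.0337. Without L-Myc 1 or L-Myc 2 the L-Myc change was between -4.52 and -2.63.

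Pcdh10, OL-protocadherin, guides axons in the forebrain and has been described as silenced by methylation in tumours. It read 8.93, 9.07 and 9.41 in preSC, 9.33 and 8.18 in L-Myc, 6.43 and 8.30 in C-Myc 1 and 2, and 4.79 and 5.29 in N-Myc arrays. L-Myc 1 lay within the preSC range, the C-Myc arrays lay below it, and both N-Myc arrays were lowest and below the threshold, so the size of their change rests on values under it. Pcdh10 fell by 4.10 (SE 0.56, adjusted p = 0.00433 by limma) in N-Myc arrays, and 4 other probe sets past the filter differed by -3.94 to -1.10. That call held in all 16 other settings (limma adjusted p up to 0.0482). In C-Myc arrays Pcdh10 differed by -1.77 (SE 0.56, adjusted p = 0.0565 by limma) and in L-Myc arrays by -0.38 (adjusted p = 0.70 by limma). Its 4 other probe sets past the filter differed by -1.47 to -0.07 in C-Myc arrays. They ranged from -0.42 to 1.00 in L-Myc arrays, where Pcdh10 is given no direction.

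Pcdh18 rose by a small amount from values below the threshold. It was tested only because transduced arrays exceeded the threshold, so its p-values are not independent of that selection. It read 4.96, 4.69 and 5.02 in preSC, 5.16 and 5.49 in L-Myc, 5.55 and 5.50 in C-Myc arrays, and 5.72 and 5.28 in N-Myc arrays. No transduced array overlapped preSC, though 2 of the 6 stayed below the threshold. Pcdh18 rose by 0.63 in C-Myc and by 0.61 in N-Myc arrays (SE 0.19, adjusted p = 0.0482 and 0.0464 by limma) and differed by 0.44 in L-Myc arrays. It did not pass when any 1 array was left out (limma adjusted p from 0.0627 to 0.287), and 2 other probe sets did not pass the filter.

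The transduced groups were compared with each other for the same 30 genes. None passed in C-Myc against N-Myc, L-Myc against C-Myc or L-Myc against N-Myc arrays, where 0% of all genes tested passed by limma. At an unadjusted p below 0.05, 1, 0 and 5 of the 30 genes lay in these comparisons, beside 541 (4.17%), 602 (4.64%) and 2432 (18.7%) of all genes. Pcdh10 was 2.33 higher in C-Myc than in N-Myc arrays (SE 0.61, 95% interval 0.90 to 3.75, adjusted p = 0.94 by limma). It was 3.72 higher in L-Myc than in N-Myc arrays (SE 0.61, 95% interval 2.30 to 5.14, adjusted p = 0.17 by limma). The L-Myc arrays also lay above the N-Myc arrays for Cdh20 by 1.81, for Cdh8 by 2.30 and for Pcdh8 by 1.55, and differed by -0.38 for Cdh3 (adjusted p from 0.17 to 0.27 by limma). None of these differences passed after adjustment. Without preSC 3, L-Myc 2 and C-Myc 2, 2 genes passed in C-Myc against N-Myc (1.83% of all genes), 12 in L-Myc against C-Myc (28.8%) and 11 in L-Myc against N-Myc (32.4%), with 1 L-Myc and 1 C-Myc array left.

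The spread between arrays of a group was uneven among the cadherins. Of the 30 genes, 9 lay at least 2-fold apart between L-Myc 1 and 2, where 8.69% of all genes tested did: Cdh4, Cdh7, Cdh9, Cdh11, Cdh20, Pcdh7, Pcdh8, Pcdh9 and Pcdh10. Between C-Myc 1 and 2, 5 did (10.9% of all genes): Cdh8, Cdh9, Pcdh7, Pcdh10 and Pcdhb7. PreSC 3 lay 2-fold from preSC 1 for 5 genes (7.41% of all) and from preSC 2 for 6 genes (7.14% of all), among them Cdh7, Cdh9, Pcdh7, Pcdhb7 and Pcdhb12. None did between preSC 1 and 2 (0.0308% of all genes) or between N-Myc 1 and 2 (0.0385% of all genes).

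Cdh9 and Pcdh7 were at least 2-fold higher in preSC 3, L-Myc 2 and C-Myc 2 than in the other arrays of their groups. Cdh9 was higher by 4.44, 4.84 and 4.65 and Pcdh7 by 2.38, 4.19 and 2.94. Of all genes tested, 175 were 2-fold higher and 140 lower in these 3 arrays alike, 2.43% together. Other genes were split in 1 or 2 groups only: Cdh11 and Cdh4 in L-Myc, Cdh8 in C-Myc, Cdh7 in preSC and L-Myc, Pcdh10 in both L-Myc and C-Myc but in opposite directions. Dcn, a fibroblast marker, was high in the same 3 arrays, and Lyz2 and Sftpc were low in them, at 5.61 to 6.76 and 6.06 to 6.43, against 9.31 to 12.31 and 7.77 to 11.10 elsewhere. The part of these markers in the split was not tested.

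**Figure D4:**
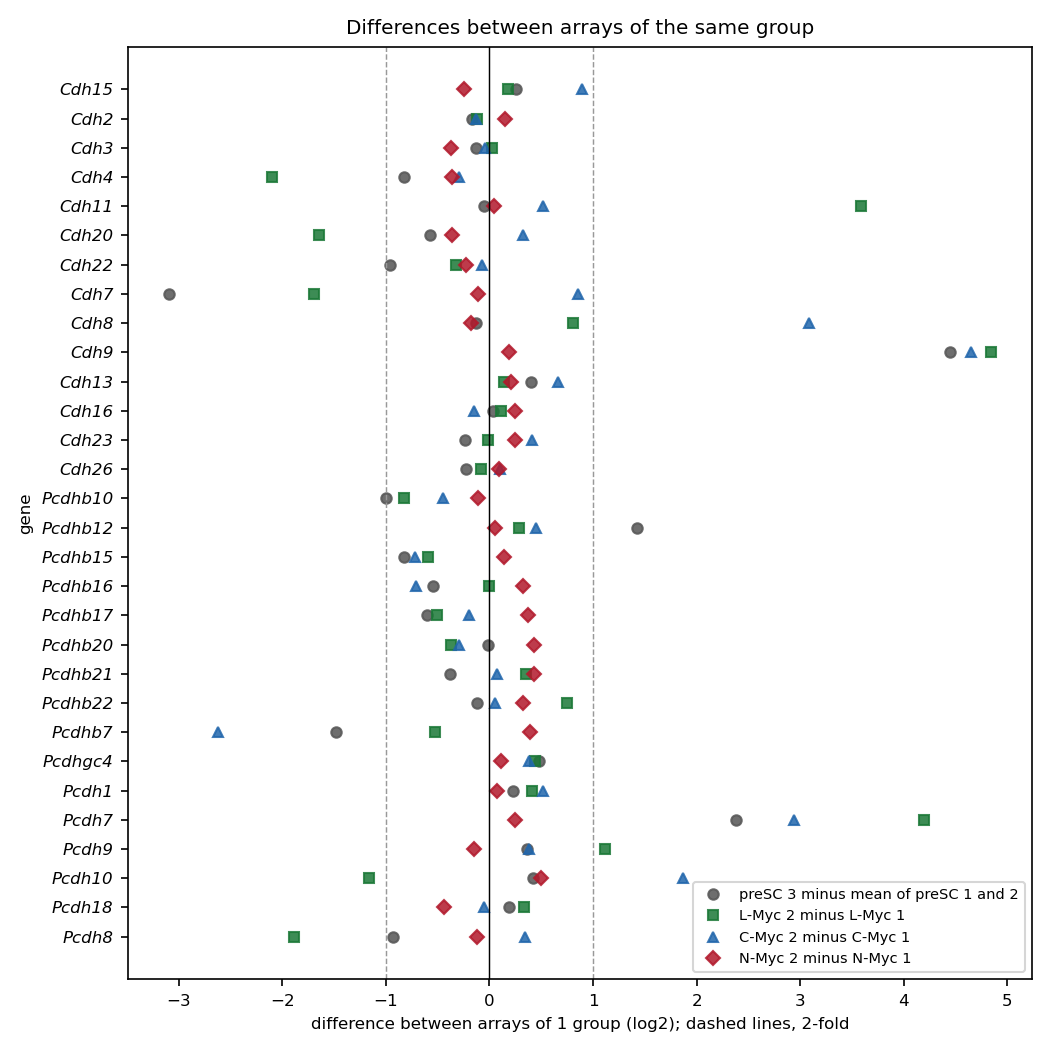
Difference between arrays of the same group (log2) for the 30 genes, with dashed lines at 2-fold. Cdh9 and Pcdh7 lie far to the right for preSC, L-Myc and C-Myc, and the N-Myc arrays stay within 2-fold for every gene.

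For 11 of the 30 genes, 2 or more probe sets passed the filter, 29 probe sets in all. The brightest gave the values above. Cdh2, Cdh4, Cdh7, Cdh8, Pcdh8, Pcdhb16 and Pcdhb21 differed in 1 direction on every such probe set in all 3 comparisons with preSC, as did Pcdh10 in C-Myc and N-Myc arrays, where 1 of its probe sets differed by -0.07 and -1.10. Cdh13, Pcdh7 and Pcdh9 did not. Cdh11, Pcdh18, Pcdhb20 and Pcdhgc4 rest on 1 probe set each.

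**Figure D5:**
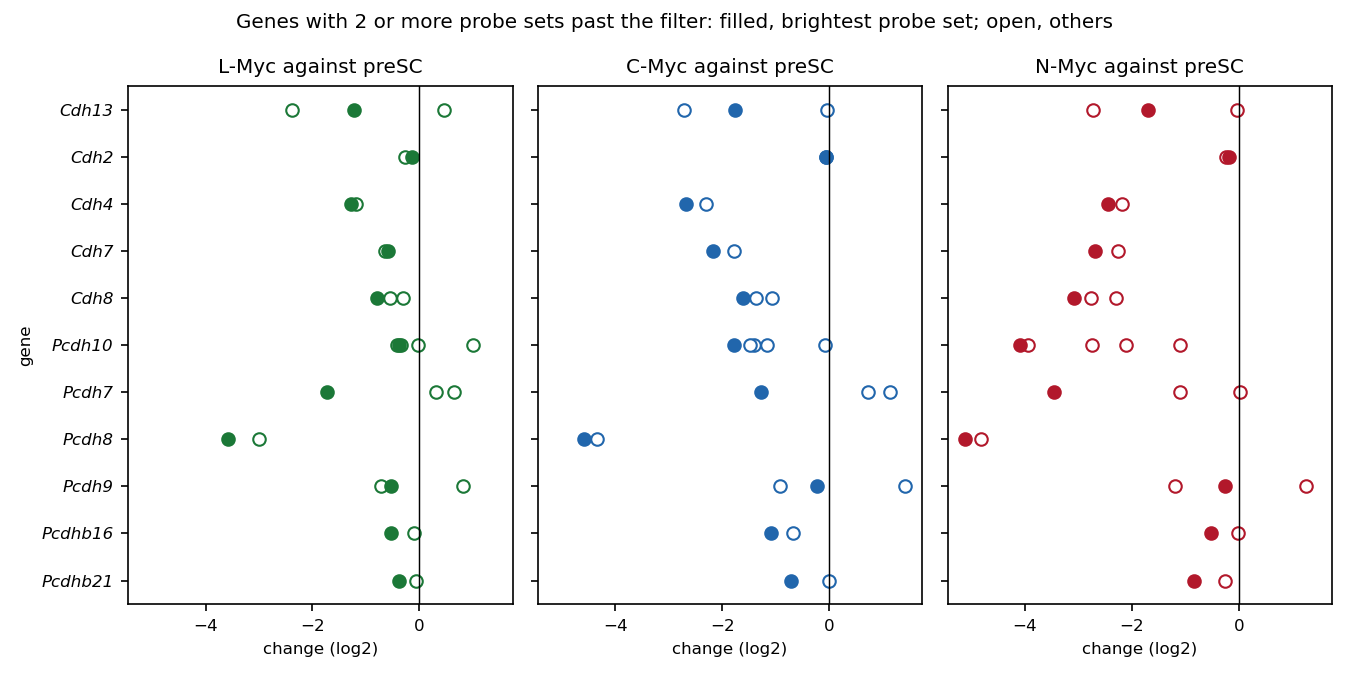
Change against preSC (log2) on each probe set past the filter for the 11 genes with 2 or more, filled for the brightest. The probe sets of Pcdh8, Cdh4 and Cdh8 lie on the same side of 0, those of Pcdh9 spread across it in each comparison, and those of Cdh13 do so in L-Myc arrays.

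The other 25 genes did not pass the filter and were not tested. Of type II, these were Cdh5 (VE-cadherin of endothelium), Cdh6, Cdh10, Cdh18 and Cdh19, and of the atypical genes Cdh17, the intestinal LI-cadherin. Cdh5 read 3.69 to 4.41, Cdh17 3.00 to 3.66, and Cdh6 passed the threshold in L-Myc 1 alone, at 6.00. Of the clustered genes, Pcdhb1 to Pcdhb6, Pcdhb8, Pcdhb9, Pcdhb11, Pcdhb13, Pcdhb14, Pcdhb18 and Pcdhb19 stayed below. Of the non-clustered genes, Pcdh11x, Pcdh17, Pcdh19, Pcdh12, Pcdh15 and Pcdh20 did, of which Pcdh12 exceeded the threshold in L-Myc 1 alone (5.60).

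Genes that work with cadherins were taken from 5 lists. Catenins and other cytoplasmic partners of cadherins had 22 genes tested, of which 8 fell in L-Myc, 10 fell in C-Myc, and 7 fell and 3 rose in N-Myc arrays. Of all genes tested, 8.03%, 13.6% and 16.4% fell and 5.44%, 9.91% and 12.5% rose, shares that also stand beside the counts of the other 4 lists. Their medians were -0.66, -0.67 and -0.45, beside -0.04, -0.05 and -0.03 over all genes. Ctnnd2, the neural delta-catenin, fell in all 3 groups, with changes of -0.98, -1.60 and -1.90 (SE 0.25, adjusted p = 0.0425, 0.00682 and 0.00411 by limma). It did not pass in L-Myc arrays without any 1 preSC array or without L-Myc 2 (limma adjusted p from 0.0716 to 0.189). Ptprf, a receptor phosphatase that binds the catenin complex, fell too, with changes of -1.61, -1.55 and -1.79 (SE 0.14, adjusted p = 0.00261, 0.00209 and 0.00139 by limma), and passed whichever array was left out. Ptprk, of the same class, fell in N-Myc arrays, with a change of -1.98 (SE 0.34, adjusted p = 0.00819 by limma), a call lost without either N-Myc array (limma adjusted p = 0.0576 and 0.0710). Vezt, vezatin, passed with changes of -1.10 in C-Myc and -1.40 in N-Myc arrays, but with 0.55 and 0.63 on its second-brightest probe set, and is given no direction. Left-out arrays also ended its call (5 of 5 in C-Myc arrays and 3 of 5 in N-Myc arrays, limma adjusted p from 0.0503 to 0.146).

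Other members of the cadherin superfamily had 16 genes tested, of which 3, 6 and 7 fell in the 3 groups and none rose, beside those shares of all genes (lower 8.03%, 13.6% and 16.4%). Fat1, a giant atypical cadherin, fell in all 3 groups, with changes of -2.47, -2.38 and -2.35 (SE 0.23, adjusted p = 0.00294, 0.00243 and 0.00231 by limma), whichever array was left out. Clstn2, calsyntenin 2 of synapses, fell, with changes of -2.43 in C-Myc and -3.48 in N-Myc arrays (SE 0.60, adjusted p = 0.0271 and 0.00834 by limma). It was not called in C-Myc arrays without any 1 preSC array (0.0607 to 0.0737) or in N-Myc arrays without either N-Myc array (0.0593 and 0.0714), all by limma. Cdhr1, a photoreceptor cadherin, fell, with changes of -1.67, -2.30 and -2.40 (SE 0.31), though not without preSC 1, preSC 2 or L-Myc 2 in L-Myc arrays (limma adjusted p from 0.0574 to 0.0933). Ret, a receptor tyrosine kinase with cadherin-like domains, passed with changes of -2.29, -2.0 and -1.26 on its brightest probe set, in N-Myc arrays not without either N-Myc array (limma adjusted p = 0.0793 and 0.116). On its second-brightest probe set Ret differed by 0.01 in C-Myc and 0.56 in N-Myc arrays, so it is given no direction there.

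Of 11 tested transcription factors that repress or activate cadherin genes in epithelial-mesenchymal change, 1 fell in L-Myc and 1 in C-Myc arrays and 1 rose in N-Myc arrays. Ovol2, a repressor that protects epithelial state, fell, with changes of -1.62 and -1.38 (SE 0.24, adjusted p = 0.00903 and 0.00946 by limma) in L-Myc and C-Myc arrays and differed by -0.26 in N-Myc arrays. Klf4 rose by 1.37 in N-Myc arrays (SE 0.39, adjusted p = 0.0378 by limma), a call lost without any 1 array (0.0775 to 0.168). Of 16 tested proteases and convertases that process cadherins, 1 rose in each group and 1, 3 and 4 fell. The gene counted as higher was Ncstn, nicastrin of gamma-secretase, with changes of 1.31, 1.37 and 1.27 (SE 0.21). Its second-brightest probe set differed by -0.66, -0.40 and -0.28, so it is given no direction, and the call was lost without L-Myc 1 (limma adjusted p = 0.0521), N-Myc 1 or N-Myc 2 (0.0538 and 0.0693). Aph1b, another gamma-secretase gene, fell, with a change of -2.51 (SE 0.60, adjusted p = 0.0215 by limma) in N-Myc arrays, and passed only without preSC 1 among its 5 arrays (0.0502 to 0.127 for the others). Adam10, the sheddase of N-cadherin, passed with changes of -0.87 in C-Myc and -1.37 in N-Myc arrays (SE 0.22), but its second-brightest probe set differed by 0.00 in C-Myc arrays. Its call was lost without N-Myc 1 (limma adjusted p = 0.0656) in N-Myc arrays and without any array but C-Myc 2 in C-Myc arrays (0.0669 to 0.119). Pcsk5, a proprotein convertase, fell, with changes of -1.69 and -1.61 in the same groups (SE 0.43, adjusted p = 0.0307 and 0.0310 by limma), with 3 and 4 of the 5 left-out arrays ending the call (0.0832 to 0.148).

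Of 21 tested regulators of the protocadherin clusters and of protocadherin signalling, 3, 4 and 4 fell and 1, 2 and 1 rose. Dnmt3a, a DNA methyltransferase, fell, with changes of -1.01, -1.40 and -1.29 (SE 0.18, adjusted p = 0.0151, 0.00409 and 0.00462 by limma), though not without preSC 1, preSC 2 or L-Myc 2 in L-Myc arrays (0.0529 to 0.0815) or without N-Myc 2 in N-Myc arrays (0.0513). Taok2, a kinase that binds Pcdh8 protein, rose by 0.94, 0.85 and 0.84 (SE 0.19, adjusted p = 0.0218, 0.0203 and 0.0181 by limma), with 4, 3 and 2 of 5 left-out arrays ending the call (0.0521 to 0.132). Ptk2b, the kinase Pyk2, passed with changes of -1.37 in L-Myc and -0.94 in C-Myc arrays but with 0.45 and 0.63 on its second-brightest probe set, and is given no direction. Cyfip2, of the actin-regulating WAVE complex, fell by 1.45 in N-Myc arrays (SE 0.36, adjusted p = 0.0244 by limma), a call that held only without preSC 1 (0.0552 to 0.155 for the other arrays).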

How the data were processed

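RNA of 9 samples (3 preSC and 2 each of L-Myc, C-Myc and N-Myc cells) was measured on 1 Affymetrix mouse array type with 45101 probe sets. The deposited values are log2 intensities per probe set, made by the authors with RMA (affy in R 3.0.1, per the submitters' processing notes), which corrects the background, normalizes quantiles and summarises probes. RMA makes arrays alike in distribution, so a shift of most genes together would not appear. Scanner files were not used here.

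Probe sets were named from the platform's annotation, and 932 that name several genes were left out. Each of 18193 genes was represented by its brightest probe set, and 12976 that exceeded an array's 40th percentile in 2 or more arrays were fitted with limma 3.58.1 (R 4.3.3; lmFit and eBayes) as 4 group means, with 5 residual degrees of freedom and Benjamini-Hochberg adjustment over the genes tested. The fit was tested on simulated data with independent noise for each gene and array. The measured arrays share deviations across groups, so that test cannot show whether the calls hold here. The number of arrays limits the precision, and where replicates are not separate cultures, p-values measure only the spread between these samples.

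The genes followed, the marker and pathway lists and the tests were chosen with earlier results of these data known. All 30 tested genes are named, those that passed with each array's value, and from each pathway list up to 4 genes that passed with the largest change. The motifs CCAAT and TATAAA, and leaving out preSC 3, L-Myc 2 and C-Myc 2 or averaging preSC 1 and 2, were chosen after seeing the data. Other alternatives were the second-brightest probe set, the mean of probe sets, no filter, a 60th percentile filter, array centring, quantile normalization, fitting only the groups compared, an intensity trend, the replicate number as a block, and leaving out each array.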

Additional observations from a re-analysis of the deposited data

How the results depend on the processing

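Counts of cadherin and protocadherin genes that passed limma against preSC (2 for L-Myc, 9 for C-Myc, 10 for N-Myc) moved with the processing. Except for the fit without preSC 3, L-Myc 2 and C-Myc 2, the share of all genes that passed is not given beside the counts here and in the next paragraph. The counts are therefore no result about the family. On second-brightest probe sets, with 11 of the genes tested, they were 3 for C-Myc and 6 for N-Myc. Fitting only the groups compared gave 5 for C-Myc, 12 for N-Myc and 1 for L-Myc against N-Myc. Averaging preSC 1 and 2 gave 3 for C-Myc and 4 for N-Myc. Without preSC 3, L-Myc 2 and C-Myc 2 the counts were 15, 19 and 19, and 2 for C-Myc against N-Myc, 12 for L-Myc against C-Myc and 11 for L-Myc against N-Myc, with 2 residual degrees of freedom. Leaving out 1 array gave 1 to 3, 3 to 10 and 2 to 7 against preSC, 0 to 2 for C-Myc against N-Myc, and 0 to 1 for each of L-Myc against C-Myc and L-Myc against N-Myc. The cause was not tested. Pcdh8 passed under every alternative in all 3 comparisons, Cdh13 and Pcdhb20 did in C-Myc, and Pcdh10 did in N-Myc arrays. The direction turned on second-brightest probe sets for Vezt (C-Myc 0.55, N-Myc 0.63), Ret (C-Myc 0.015, N-Myc 0.56), Ncstn (-0.66, -0.40 and -0.28), Adam10 (C-Myc 0.0032, and 0.098 for the mean of probe sets) and Ptk2b (L-Myc 0.45, C-Myc 0.63).

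With the replicate block the counts were 2, 10 and 7 against preSC and 0 between transduced groups. The numbers come from titles alone. Deviations of same-numbered arrays correlated from -0.68 (preSC 2 and L-Myc 2) to 0.65 (preSC 1 and L-Myc 1). They correlated positively between transduced groups (0.44 for L-Myc and C-Myc, 0.14 for either with N-Myc) and for preSC 1, and negatively for preSC 2, though only at -0.01 with N-Myc 2. In a group of 2 arrays the deviations mirror each other, so both numbers give the same value between transduced groups. The deviations of preSC 1 and 2 were alike (0.59), so their opposite signs follow from the calculation and say nothing about the numbering. Whether same-numbered arrays share more than a number was not tested.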

Other observations

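Clustered alpha-protocadherins (Pcdha), which share their constant exons, were on probe sets that name several genes and so belong to no comparison above. The brightest of the 3 Pcdha probe sets that name 14 genes read 7.96, 8.25 and 4.30 in preSC 1 to 3, 8.41 and 4.54 in L-Myc 1 and 2, 8.29 and 4.36 in C-Myc 1 and 2, and 7.72 and 8.13 in N-Myc arrays. It was low in preSC 3, L-Myc 2 and C-Myc 2, below the threshold, and high on the other 6 arrays. The second Pcdha probe set read 3.74 to 3.92 in these 3 arrays and 7.07 to 7.58 in the others, and the third 4.63 to 5.15 and 6.29 to 6.76. These are the arrays in which Cdh9 and Pcdh7 were high.

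Without the filter on low values, 3 of the 25 genes below it passed limma against preSC: Cdh10 in L-Myc and N-Myc arrays (changes of 0.71 and 0.51, adjusted p = 0.0224 and 0.0402), Cdh17 in N-Myc arrays (-0.47, adjusted p = 0.0421) and Pcdhb5 in N-Myc arrays (0.75, adjusted p = 0.0242). All 3 were below the threshold on every array (Cdh10 4.42 to 5.27, Cdh17 3.00 to 3.66, Pcdhb5 4.23 to 5.31), so these are differences among low values. The share of all genes below the filter that passed is not given, so the count is no result about the family.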
